A study of Danio rerio with 8 samples.

Results

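The 7 mRNAs described here are those of the mitochondrial genome that encode subunits of respiratory complex I: mt-nd1 (ENSDARG00000063895), mt-nd2 (ENSDARG00000063899), mt-nd3 (ENSDARG00000063914), mt-nd4l (ENSDARG00000063916), mt-nd4 (ENSDARG00000063917), mt-nd5 (ENSDARG00000063921) and mt-nd6 (ENSDARG00000063922). They were chosen by their Ensembl gene IDs and make up 7 of the 37287 features for which the authors deposited FPKM, the number of counted fragments of a feature relative to its length and to the library's total. The values come from patch-seq of single neurons of the CaD nucleus, a brainstem nucleus of the larval zebrafish. CaD neurons were marked by retrograde labeling with dextran in a GFP line, written Tg (gly2:GFP) in the labels and Tg(Glyt2:GFP) in the paper's methods after the glycine transporter GlyT2, and were drawn into a glass pipette. The paper's methods give an age of 12 to 14 days post-fertilization for the larvae. The 8 libraries, numbered with gaps from M1 to M17, form 1 group, labeled glycinergic neurons, with 1 cell per fish by the submitters' design text and no second cell type or treatment.

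Complex I takes electrons from NADH, passes them to ubiquinone and pumps protons across the inner mitochondrial membrane. Its membrane arm is built around the subunits that mitochondrial DNA encodes, and the remaining subunits are nuclear gene products that are imported. Vertebrate mitochondrial DNA is transcribed from both strands into long precursors that are cut at the tRNAs, so the mRNAs of one strand start from a shared transcript. All of the complex I mRNAs come from the same strand except mt-nd6, which lies on the other. In human cells the ND6 mRNA carries no long poly(A) tail, while the other mRNAs do, and ND4L and ND4 share a single mRNA.

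The reads counted on features were recovered from the FPKM as whole numbers and came to between 9861756 (M16) and 13761924 (M6) in 7 libraries and to 47723986 in M1. For the 17832 features with at least 10 reads in M11, M16 and M17 together, M1 had exactly the sum of those libraries at 43.7%, more at 52.9% and fewer at 3.43%. M1 may therefore not be independent of them. Levels, pair tests, spread, correlations and sums are given without it and with it. A single feature, ENSDARG00000080337, took between 21.8% (M6) and 56.8% (M17) of the reads, and the FPKM of all other features in a library share what remains. The summed FPKM of the 7 mRNAs nevertheless rose with it over the 7 libraries without M1 (r = 0.71, rho = 0.82). Their share of the remaining reads rose with it as well (r = 0.90, rho = 0.89). Leaving this feature out thus removes one that varied with the members. The neuronal RNA-binding protein genes elavl3 and elavl4 were above 100 FPKM in every library (lowest values 114.9 and 103.5). The defining glycinergic marker slc6a5, which encodes the glycine transporter GlyT2, lay between 0 and 1.22 FPKM. The gene for the vesicular transporter of glycine and GABA, slc32a1, was at 26.9 FPKM in M11, 8.58 in M1, 5.64 in M17 and 2.95 in M6 and below 0.1 in the other libraries. Whether amplification missed these mRNAs was not tested, and the label was not checked further. Of the neuron list 5 of 12 gene IDs reached an FPKM of 1 in all libraries, and its sum ran from 889 (M17) to 3020.2 (M6). Of the oligodendrocyte list 4 of 7 did, with a sum from 517 (M5) to 37724 (M1), of which mbpa, a myelin basic protein gene, made up 488 to 36649. The sums ran from 212 (M17) to 11668 (M11) for radial glia and astroglia (3 of 11 IDs in all libraries), from 14.1 (M5) to 1405 (M16) for microglia (2 of 4) and from 0 to 1.21 for blood and vessel (0 of 3). V0d-related markers were highest in M11 and at 0 in M5, with 0 of 7 in all libraries. In an aspirate of 1 cell, RNA of neighboring cells and RNA of the neuron itself cannot be told apart.

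All 7 complex I mRNAs were detected at an FPKM of at least 1 in all 8 libraries, a limit that 10.04% of all features passed in the 8 and 10.04% in the 7 without M1. Their FPKM lay far above it, between 442 and 3646. FPKM divides by gene length, so the 7 mRNAs were set against each other per length. No correction was made beyond this division, such as for short genes or for priming on poly(A). The part of either in the differences between the mRNAs was not tested. The gene lengths behind the deposited values equaled those of the RefSeq annotation (assembly GRCz12tu) for 7 of 7, from 297 bases for mt-nd4l to 1821 bases for mt-nd5. In that annotation mt-nd4l overlaps mt-nd4 and mt-nd5 overlaps mt-nd6. How reads over such overlaps were counted and whether strand was used is not given in the sources used here, so the share of reads between these neighbors is uncertain, and without strand, reads of mt-nd6 and reads from the opposite strand at that place cannot be told apart. Reads shared with nuclear copies of mitochondrial DNA could not be separated either. Few reads did not limit the values, since the lowest of all member values, mt-nd4l in M5, still rested on 1374 reads (exact Poisson 95% interval 419 to 466 FPKM, counting error only). Reads of amplified RNA are not molecules of the cell. Error from capture and amplification is not part of this interval and was not measured.

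**Figure D1:**
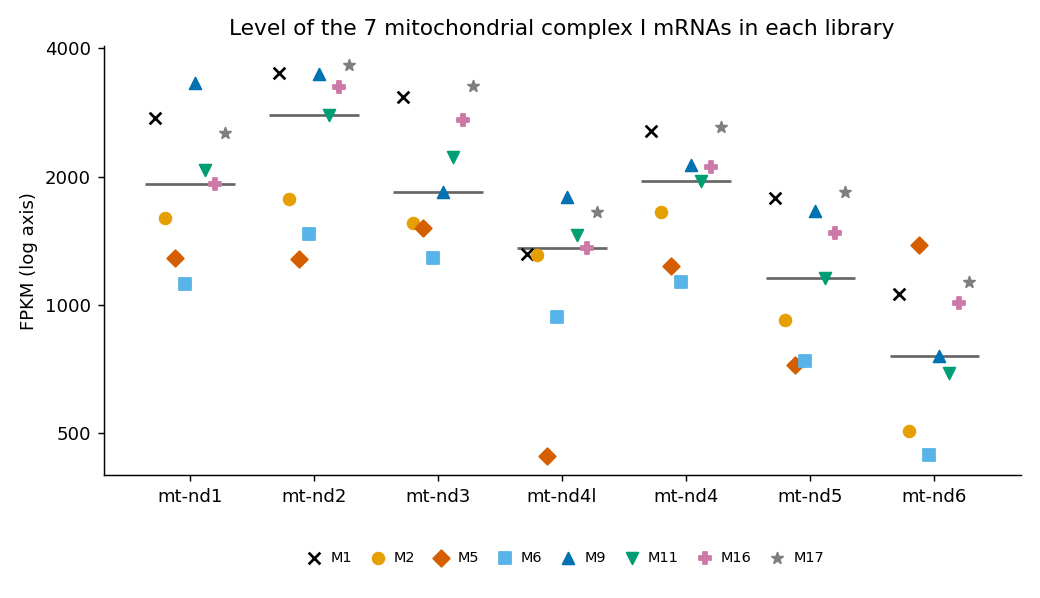
FPKM (log axis) of the 7 mitochondrial complex I mRNAs in each library, with 1 symbol per library and a gray line at the median of the 7 libraries without M1. The mRNA mt-nd2 had the highest median (2791 FPKM) and mt-nd6 the lowest (758 FPKM), and in M5 mt-nd6 was high while mt-nd4l was low.

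The subunit ND1 lies where the membrane arm meets the quinone-binding site. Its mRNA, mt-nd1, was at 3309.9 FPKM in M9, 2748 in M1, 2536 in M17, 2072 in M11, 1919 in M16, 1595 in M2, 1289.7 in M5 and 1118 in M6. It averaged 1977 ± 759 FPKM without M1 (SD, n = 7) and 2073 ± 754 with it (SD, n = 8). M9 was the highest cell and M6 the lowest of the 8.

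ND2, ND4 and ND5 are the antiporter-like subunits thought to carry the proton channels. Levels of mt-nd2 were 3646 FPKM in M17, 3509 in M1, 3488 in M9, 3238 in M16, 2791 in M11, 1774 in M2, 1463 in M6 and 1281 in M5. They fell into a lower set of M2, M5 and M6 and a higher set of the other 5 libraries, with a mean of 2526 ± 1000.4 FPKM without M1 (SD, n = 7) and 2649 ± 989 with it (SD, n = 8). M6, M5 and M2 were also the lowest for mt-nd4, but no gap set them apart as for mt-nd2. Its values were 1133 FPKM in M6, 1232 in M5, 1650.4 in M2, 1954 in M11, 2108 in M16, 2124 in M9, 2553 in M1 and 2612 in M17. The mRNA mt-nd4 varied least among the 7, with a highest-to-lowest ratio of 2.30 without M1 and a mean of 1831 ± 527 FPKM (SD, n = 7; 1921 ± 551 with M1, n = 8). For mt-nd5 the values were 1844 FPKM in M17, 1779.9 in M1, 1662 in M9, 1475 in M16, 1159 in M11, 920.4 in M2, 736 in M6 and 722 in M5. Although it encodes the longest subunit, mt-nd5 per length was the lowest of the antiporter-like subunits in all 8 libraries, at 1217 ± 452 FPKM without M1 (SD, n = 7) and 1287 ± 463 with it (SD, n = 8).

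ND3, ND4L and ND6 are small subunits of the membrane arm. Levels of mt-nd3 were 3255 FPKM in M17, 3067 in M1, 2712 in M16, 2225 in M11, 1844 in M9, 1556 in M2, 1512 in M5 and 1287 in M6, with a mean of 2056 ± 716 without M1 (SD, n = 7) and 2182 ± 754 with it (SD, n = 8). The shortest of the 7, mt-nd4l, was at 1786 FPKM in M9, 1648 in M17, 1458 in M11, 1359 in M16, 1319 in M1, 1311 in M2, 935 in M6 and 442 in M5. M5 stood below all other cells here, and mt-nd4l had the widest range of the 7, with a highest-to-lowest ratio of 4.04 (mean 1277 ± 457, SD, n = 7, and 1282 ± 423 with M1, n = 8). For mt-nd6 the values were 1382 FPKM in M5, 1134 in M17, 1058 in M1, 1009 in M16, 758 in M9, 690.3 in M11, 506 in M2 and 443 in M6. M5 was thus the highest cell for mt-nd6 and the lowest for mt-nd2, mt-nd4l and mt-nd5. The mean of mt-nd6 was 846 ± 343 FPKM without M1 (SD, n = 7) and 872 ± 326 with it (SD, n = 8).

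The first and last places in the order of the 7 levels were much the same from cell to cell, while the places between them changed. The mRNA mt-nd2 was first in 7 of 8 libraries, and mt-nd6 was last in 7 of 8. The exception was M5 for both, in which mt-nd3 was first, mt-nd6 next and mt-nd4l last. In the other libraries mt-nd1, mt-nd3 and mt-nd4 traded places 2 to 4, and mt-nd4l and mt-nd5 traded places 5 and 6. By the mean without M1 the order was mt-nd2, mt-nd3, mt-nd1, mt-nd4, mt-nd4l, mt-nd5 and mt-nd6. By the median without M1, mt-nd4 (1954 FPKM) and mt-nd1 (1919) were above mt-nd3 (1844). Whether the members of a pair differed was tested on the ratio within each cell, in which depth and scaling cancel, by a two-sided exact sign-flip permutation test over the 7 cells without M1 with Benjamini-Hochberg adjustment over the 21 pairs. The smallest p this design can reach is 0.015625.

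Of the 21 pairs, 14 differed at an adjusted p under 0.05. Both mt-nd1 and mt-nd3 were above mt-nd4l and mt-nd5 in 7 of 7 cells, by 1.58-fold and 1.63-fold for mt-nd1 and by 1.66-fold and 1.71-fold for mt-nd3 (geometric means over cells). In 7 of 7 cells mt-nd2 was above mt-nd4 by 1.33-fold, above mt-nd4l by 1.98-fold and above mt-nd5 by 2.04-fold. Likewise mt-nd4 exceeded mt-nd4l by 1.49-fold and mt-nd5 by 1.54-fold, and mt-nd3 exceeded mt-nd6 by 2.49-fold, in 7 of 7 cells. These 10 pairs reached the smallest p possible (exact permutation p = 0.015625, Benjamini-Hochberg adjusted p = 0.0328). In 6 of 7 cells, M5 being the exception, mt-nd2 was above mt-nd1 (1.26-fold) and mt-nd6 was below mt-nd1, mt-nd2 and mt-nd4 (2.37-fold, 2.98-fold and 2.24-fold; exact permutation p = 0.03125, adjusted p = 0.0469).

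Along the order of means, 1 pair of neighbors passed the test, mt-nd4 over mt-nd4l. These genes overlap, and in human cells they share a single mRNA. The ratio may therefore set parts of 1 transcript against each other, which was not tested. The other 5 pairs of neighbors did not differ beyond their spread. The log2 ratio of mt-nd2 to mt-nd3 was 0.26 ± 0.34 (SD, n = 7, positive in 6 of 7 cells, exact permutation p = 0.078125, adjusted p = 0.109). Between mt-nd1 and mt-nd3 it was -0.07 ± 0.44 and between mt-nd1 and mt-nd4 0.08 ± 0.26 (adjusted p = 0.738 for each, exact permutation test). Between mt-nd4l and mt-nd5 it was 0.04 ± 0.41, and between mt-nd5 and mt-nd6 0.54 ± 0.68 (adjusted p = 0.8125 and 0.144, exact permutation test). The 2 further pairs that did not pass were mt-nd3 with mt-nd4 (0.15 ± 0.22, adjusted p = 0.154) and mt-nd4l with mt-nd6 (0.58 ± 1.04, adjusted p = 0.237, exact permutation test). With M1 included the same 14 pairs passed, but M1 may share reads with M11, M16 and M17, so this is not a separate check. Leaving out M5 gave 17 pairs (smallest adjusted p = 0.0386, exact permutation test over 6 cells), among them mt-nd5 over mt-nd6, mt-nd4l over mt-nd6 and mt-nd2 over mt-nd3, whereas leaving out any other cell gave 0 pairs, a design in which 10 pairs were at the smallest p possible, 0.03125, and the smallest adjusted p was 0.0656. None of the 14 pairs changed direction when a cell was left out.

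**Figure D2:**
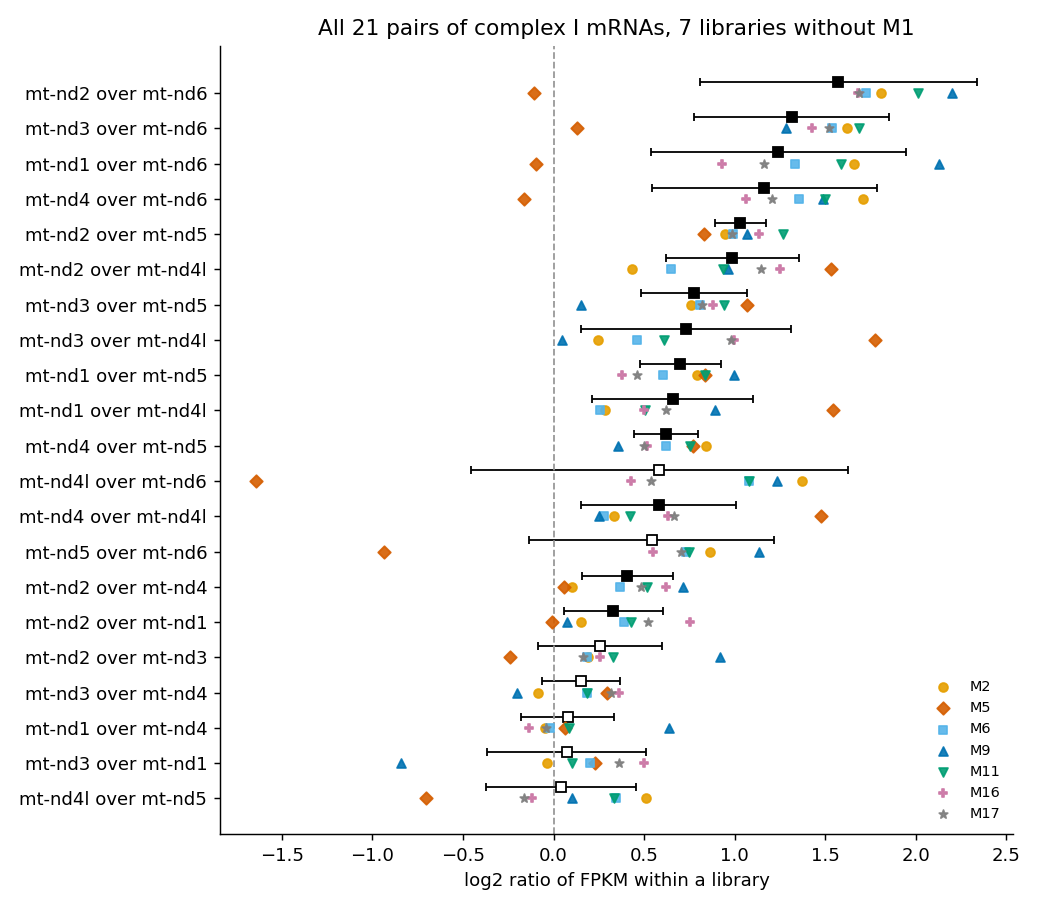
Log2 ratio of FPKM within a library for all 21 pairs, with 1 colored symbol per library (7 without M1) and a square with a bar for the mean and SD, filled where the adjusted p is under 0.05. The ratio of mt-nd2 to mt-nd5 had the smallest SD (0.14), and the M5 symbols lie to the left of all others in the pairs with mt-nd6.

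The tightest relation of the 21 was that of mt-nd2 to mt-nd5, with a log2 ratio of 1.03 ± 0.14 (SD, n = 7). In the single libraries mt-nd2 was 2.41 times mt-nd5 in M11, 2.19 in M16, 2.10 in M9, 1.99 in M6, 1.98 in M17, 1.97 in M1, 1.93 in M2 and 1.78 in M5. Every cell was therefore near the median of 1.99, M5 included. The loosest was that of mt-nd4l to mt-nd6 (SD 1.04).

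Set against mt-nd4 in the same library, 2 cells stood out, each in a different mRNA. In M5 the ratio of mt-nd6 to mt-nd4 was 1.12, against 0.306 to 0.478 in the other 7 libraries. The groups of values did not come near each other, and the ratio of mt-nd6 to mt-nd5 showed the same, at 1.91 in M5 and 0.456 to 0.684 elsewhere. In M5 mt-nd6 was at 1.91 times its median in the other 6 cells without M1, while the other 6 mRNAs were at 0.314 (mt-nd4l) to 0.743 (mt-nd3) times theirs. The value of mt-nd6 in M5 rested on 7501 reads, more than in any other library but M1. After ENSDARG00000080337 was left out and the rest rescaled, mt-nd6 in M5 (2073) was no longer the highest and lay below M17 (2318), but its ratios to the other mRNAs do not depend on scaling. M5 also had the lowest ratio of mt-nd4l to mt-nd4, 0.359, next to 0.517 in M1 and 0.631 to 0.841 in the other libraries. M5 had the lowest sums of the oligodendrocyte and microglia markers, and their part in these ratios was not tested.

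In M9 the ratio of mt-nd1 to mt-nd4 was 1.56, against 0.910 to 1.08 in all other libraries. The ratio of mt-nd1 to mt-nd3 was likewise highest in M9, at 1.80 against 0.708 to 1.03. M9 also had the lowest ratio of mt-nd3 to mt-nd4, 0.868, and its mt-nd1 was at 1.88 times the median of the other 6 cells without M1 while its mt-nd3 was at 0.976 times. Unlike these 2 cells, M6 and M2 were below the median of the others for every member (0.485 to 0.664 and 0.572 to 0.931 times), and M17 was above it (1.24 to 1.92 times).

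**Figure D3:**
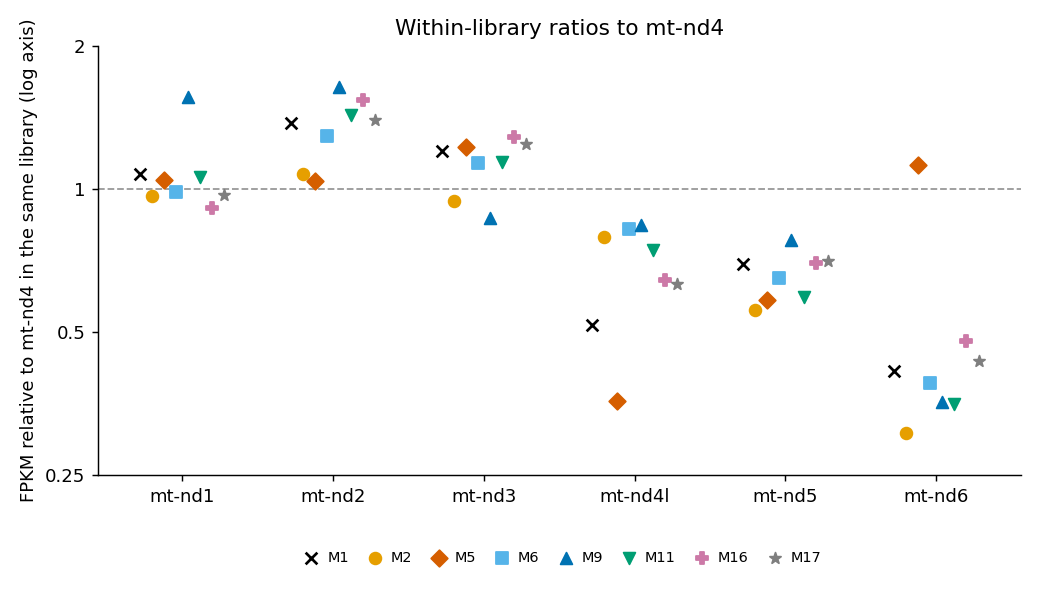
FPKM of 6 complex I mRNAs relative to mt-nd4 in the same library (log axis), with 1 symbol per library and a dashed line at equality. M5 stands apart for mt-nd6 (1.12) and M9 for mt-nd1 (1.56), and M5 is the lowest for mt-nd4l (0.359) with M1 next to it (0.517).

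M1 lay within the range of the other libraries, with the highest value for 0 of the 7 mRNAs and the lowest for 0. This was not particular to the members. Among the 3743 features detected in all 8 libraries, M1 was highest for 0.160% and lowest for 4.57%. All 7 mRNAs had more reads in M1 than in M11, M16 and M17 together. The reads beyond that sum were 19.2% of the M1 reads for mt-nd4l and 34.7% (mt-nd2) to 43.3% (mt-nd1) for the others, against 28.6% over the whole library. Per length and relative to mt-nd4, these further reads gave 1.23 for mt-nd1, 1.26 for mt-nd2, 1.17 for mt-nd3, 0.261 for mt-nd4l, 0.746 for mt-nd5 and 0.406 for mt-nd6. The value for mt-nd4l was lower than the ratio in any library, and the one for mt-nd6 was within the range of the libraries other than M5.

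In the deposited FPKM, the spread between cells was smaller for the complex I mRNAs than for most features. With ENSDARG00000080337 left out and the rest rescaled, the members' median SD over the 8 libraries was 0.74 in place of 0.56. The SD of all features under that scaling is not given here, so the comparison holds for the deposited scaling only. The SD of log2(FPKM + 1) over the 7 cells without M1 was 0.44 for mt-nd4, 0.49 for mt-nd3, 0.55 for mt-nd1 and mt-nd5, 0.60 for mt-nd6, 0.63 for mt-nd2 and 0.69 for mt-nd4l. Among the other mRNAs of the mitochondrial genome it was 0.39 for mt-atp6 and mt-atp8, 0.41 for mt-co1 and 0.46 for mt-co3. For mt-co2 it was 0.48 and for mt-cyb 0.65, so a low spread was not particular to complex I. Over the 3744 features detected in each of these cells the median SD was 0.90, and between 4.46% (mt-nd4) and 25.1% (mt-nd4l) of them had a smaller SD than a member. Low features vary more through counting alone, so the like comparison is with the 28 features whose mean lay within the range of the members, these included. Their median SD was 0.77, and the number of the 28 with a smaller SD ran from 1 (mt-nd4) to 11 (mt-nd4l). Over all 8 libraries the members' SD ranged from 0.45 to 0.64. The median SD was then 0.86 for the 3743 features detected in each, of which 5.26% to 22.4% had a smaller SD than a member, and 0.72 for the 26 with a like mean.

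The 7 mRNAs rose and fell together over the cells, apart from mt-nd6. Across the 7 libraries without M1, the 15 pairs that do not involve mt-nd6 had a median Pearson r of 0.85 for log2 FPKM (0.56 to 0.98), highest for mt-nd2 with mt-nd5. The 6 pairs with mt-nd6 had a median r of 0.29 (-0.29 to 0.53), and of 0.58 (0.14 to 0.73) once ENSDARG00000080337 was left out and the rest rescaled, so the negative value, mt-nd4l with mt-nd6, turned positive with the scaling. Without M5, a choice made after its mt-nd6 value was seen, the pairs with mt-nd6 had a median r of 0.92 (0.69 to 0.96, n = 6), so their low values rested on M5. The medians with all 8 libraries were 0.87 without mt-nd6 and 0.36 with it. Members of a pair share the library, its depth and its total, and these values are therefore a description.

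**Figure D4:**
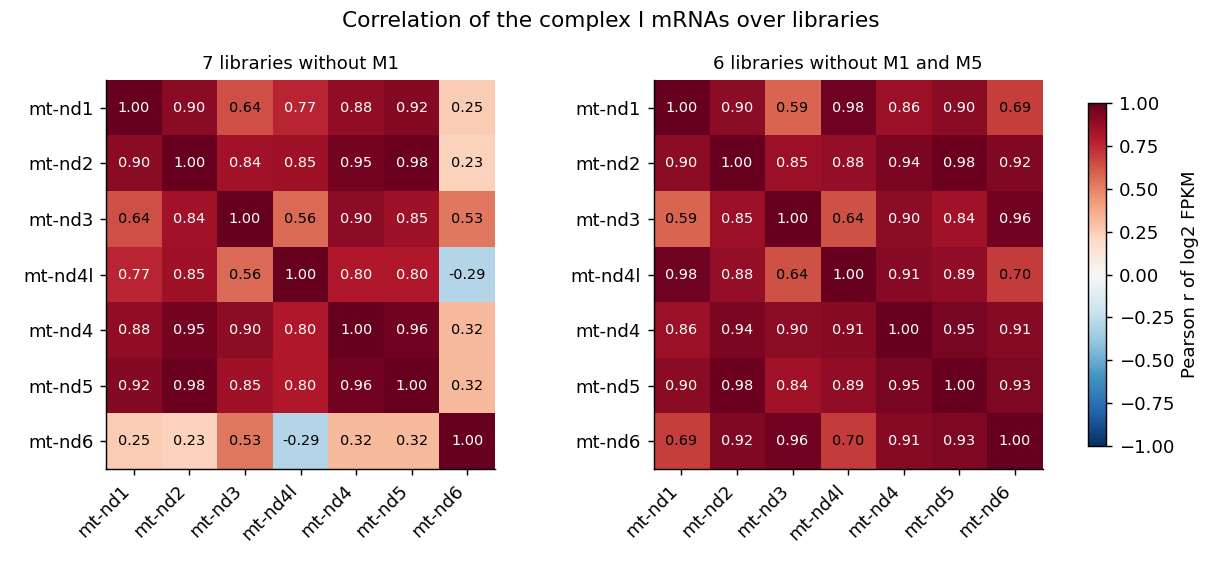
Pearson r of log2 FPKM between the complex I mRNAs over the 7 libraries without M1 (left) and over the 6 without M1 and M5 (right), from blue (-1) to red (1). The mt-nd6 row is pale on the left (median r 0.29) and dark on the right (median r 0.92).

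Summed over the 7 mRNAs, complex I mRNA was at 7115 FPKM in M6, 7861 in M5, 9311 in M2, 12349.6 in M11, 13819.7 in M16, 14972 in M9, 16034 in M1 and 16676 in M17. The mean was 11729 ± 3694 without M1 (SD, n = 7) and 12267 ± 3743 with it (SD, n = 8), a 2.34-fold range. As a share of the counted reads, the 7 mRNAs made up 0.649% (M6) to 1.55% (M17). M17 had the highest value for 4 members (mt-nd2, mt-nd3, mt-nd4 and mt-nd5), M9 for 2 (mt-nd1 and mt-nd4l) and M5 for 1 (mt-nd6). Among the 3743 features detected in all 8 libraries, 1.90% were highest in M17, 14.5% in M9 and 14.7% in M5. M6 had the lowest value for 4 members (mt-nd1, mt-nd3, mt-nd4 and mt-nd6) and M5 for 3, against 2.94% and 4.17% of those features. In the same set of features 44.0% were lowest in M17 and 29.3% highest in M6, the reverse of the members. With ENSDARG00000080337 left out, M17 was highest for 6 members and M6 lowest for 6, and the members' share of the remaining reads was again lowest in M6 and was 3.59% in M17. The number of detected features was also lowest in M17 (7224) and highest in M6 (13643), as was the sum of the neuron markers. The part of either in the members' levels was not tested.

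The other mRNAs of the mitochondrial genome moved with those of complex I. These encode subunits of complex IV (mt-co1, mt-co2 and mt-co3), ATP synthase (mt-atp6 and mt-atp8) and cytochrome b of complex III (mt-cyb). Their summed FPKM ran from 44307 (M5) to 109645 (M17), and its correlation with the complex I sum over 7 libraries was r = 0.90 (rho = 0.93), and 0.91 over all 8, both sums sharing the library total. They were 5.87 ± 0.75 times the complex I sum without M1 (SD, n = 7) and 5.85 ± 0.69 times with it (SD, n = 8), from 4.62 in M9 to 6.70 in M2. The 7 of the 13 mRNAs that encode complex I subunits thus held 13.0% to 17.8% of the mitochondrial mRNA FPKM. For 5 of the 6 other mRNAs the mean, 6363 (mt-atp6) to 30386 (mt-co2) FPKM, was above that of every complex I mRNA. The exception was mt-atp8, whose mean of 942 FPKM fell between mt-nd6 and mt-nd5.

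The features most like the complex I mRNAs were found by the correlation of log2(FPKM + 1) with the mean of the 7 over the 7 libraries without M1. In order they were mt-co3 (r = 0.957), the unnamed feature Novel02961 (0.943), the gene that the reference table calls SIPA1 (0.903), mt-co2 (0.903) and mt-co1 (0.889), among 3737 features compared. The list depended on the libraries and the scaling used. With M1 included the same 5 were named and SIPA1 was the last (0.874), without the highest feature FOXK2 (0.934) took the place of Novel02961, and without M5 DUOXA1 was first (0.990) and mt-atp6 (0.907) entered while mt-co1 and mt-co2 left. Both mt-co3 and SIPA1 were among the 5 in all of these. Novel02961 was at 4.01 to 51.2 FPKM and SIPA1 at 6.29 to 16.6, far below any member. The other mitochondrial mRNAs took places 7 (mt-atp6), 12 (mt-atp8) and 24 (mt-cyb), and ENSDARG00000080337 took place 27 (0.731). Of the 3737 features, 4 reached an r of 0.9, while the median feature had an r of -0.45 and 81.9% were below 0. With 7 libraries and so many features, high values can also arise by chance, which was not tested.

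The nuclear partners of these mRNAs did not follow them, and neither did most features. Of 40 symbols of nuclear complex I subunits, 39 matched to 38 gene IDs, and 30 of the 38 were detected in all 8 libraries (also 30 in the 7 without M1), against 10.04% of all features. The 3 with the highest median over the 8 libraries were ndufa6 (135 FPKM, 35.9 to 245), ndufa5 (119 FPKM, 27.8 to 265) and ndufb8 (118 FPKM, 57.5 to 305), which encode accessory subunits. The 3 lowest were ndufa9b (0.423 FPKM) and ndufs1 and ndufb4, both listed at 0 in all 8 libraries. Every complex I mRNA of the mitochondrial genome was above every nuclear subunit mRNA in each library, with a margin from 1.45-fold (M6, the lowest member against the highest nuclear gene) to 15.5-fold (M16).

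The summed FPKM of the nuclear subunits was 741 in M16, 946 in M17, 1465 in M9, 1792 in M1, 2322 in M2, 3392 in M5, 3862 in M11 and 5378 in M6. The lowest sums were thus in cells with high complex I mRNA from the mitochondrial genome, and the highest sum was in the cell with the least of it. The correlation of both sums over the 7 libraries without M1 was r = -0.80 (rho = -0.79), with a shared total in each library, and with all 8 r = -0.79. A negative relation was not particular to these genes. Of the 3737 features compared with the mean of the 7 mRNAs, 81.9% had an r below 0 (median -0.45). The sums of the cell type marker lists had a rho with the complex I sum from -0.82 (neuron) to 0.64 (blood and vessel). Of the 36 nuclear genes above 0 in any library, 29 were highest in M6, 5 in M11 and 2 in M5, while 21 were lowest in M16 and 11 in M17. Among the 3743 features detected in all libraries, 29.3% were highest in M6, 22.0% in M11 and 14.7% in M5, and 20.7% were lowest in M16 and 44.0% in M17. The ratio of the mitochondrial to the nuclear sum ran from 1.32 (M6) to 18.6 (M16), a 14.1-fold range. Spread was also wider on the nuclear side, with a median SD of log2(FPKM + 1) of 1.15 (0.61 to 2.20) for the 30 genes detected in all 7 cells against 0.55 for the 7 mRNAs (1.08 and 0.56 over all 8 libraries). Nuclear genes were lower and so carry more counting error, and its part in their spread was not tested.

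**Figure D5:**
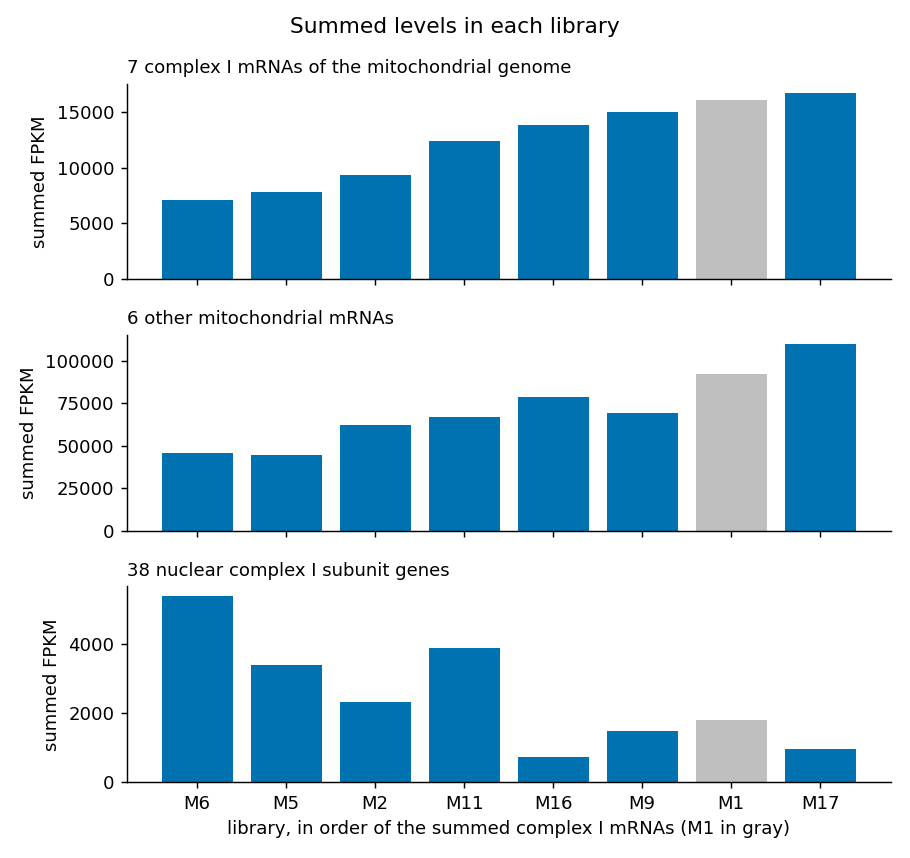
Summed FPKM (bars from 0) of the 7 mitochondrial complex I mRNAs, the 6 other mitochondrial mRNAs and the 38 nuclear complex I subunit genes in each library, ordered by the first and with M1 in gray. The first and second panels rise to M17 (16676 and 109645 FPKM), while the third is highest in M6 (5378 FPKM) and lowest in M16 (741 FPKM).

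Few genes that serve complex I at other steps were detected in all 8 libraries, as were few features in general (10.04%). Of 16 assembly factor genes 1 was, ndufaf3, at 1.09 to 12.8 FPKM. Of 18 factors of mitochondrial transcription and RNA, 17 matched and 3 were detected in all 8 libraries. These were slirp (14.4 to 156 FPKM) and lrpprc (2.62 to 16.2 FPKM), whose products form a complex that stabilizes mitochondrial mRNAs in mammals, and hsd17b10 (1.47 to 43.3 FPKM), a part of mitochondrial RNase P in humans. The gene for the mitochondrial RNA polymerase, polrmt, was at 0 to 4.68 FPKM, and tfam, which packages mitochondrial DNA and starts its transcription, at 0.576 to 30.7 FPKM. Summed over the list, the transcription and RNA factors were lowest in M17 (49.1 FPKM) and highest in M6 (272 FPKM, of which slirp made up 156), the libraries that also held the largest shares of lowest and of highest values over all features detected in the 8.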

How the data were processed

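RNA was amplified with the SMART-Seq v4 kit, which primes on poly(A), and libraries were made with the NEBNext Ultra kit. The submitters' processing notes name HISAT2 2.0.4 and HTSeq 0.9.1 (the paper's methods give HTSeq 0.6.0). Genome build, annotation and counting mode are not given in the sources used here. The authors deposited FPKM from gene length and read count, all 8 columns of which were used. A counted read may stand for a pair of reads. Totals, lengths and whole reads were recovered from FPKM ratios between libraries (tolerance for a whole number 1e-06) and made up 99.9% of the totals in every library. Tested on 12000 simulated features, the recovery returned 8 of 8 totals and the exact reads for 99.8% of 9684 features with separate libraries and for 99.7% of 10043 features with a pooled library. FPKM of at least 1 counted as detected. A pseudocount of 1 was used for SD and likeness, not for ratios. Pairs were tested by exact sign-flip permutation over 7 cells (128 sign choices). Levels, sums and correlations were described without a test, since there is 1 group.

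Members and lists were chosen with earlier results of these data known. Besides the members, the 5 features most like their mean and the 3 highest and 3 lowest nuclear subunits were named by rule. The named assembly and RNA factors were chosen after their values were seen. Gene symbols came from the reference tables, with a final a or b dropped where needed. Alternatives were other library sets, tests, scalings, pseudocounts and detection limits, and a set without M5, which was added once the values were known. Python 3.11.15, numpy 2.4.6, pandas 2.3.3, scipy 1.17.1 and matplotlib 3.10.9 were used.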

Additional observations from a re-analysis of the deposited data

Results flagged for a closer look

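In 19 measures (levels, ratios and library measures) over the 8 libraries, 3 had 1 library far from the rest, judged by its gap to the nearest library divided by the whole range against Dixon's critical value at the 95% level. Chance alone passes this in about 1 of 20 measures. The ratio of mt-nd6 to mt-nd4 in M5 had a gap of 0.789 of the range, and that of mt-nd1 to mt-nd4 in M9 a gap of 0.744. The total of counted reads in M1 had a gap of 0.897. Without M1, 2 measures passed, both of them the ratios just named (0.789 and 0.769).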

How the results depend on the processing

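Of 101 alternative values, 22 moved by more than a spread or, for a count, by over 1.5 times, and 79 did not. The spread was the SD between cells, except for the median SD (SD between the 7 mRNAs) and the median r (SD between the 21 pairs). All FPKM medians rose when the values were rescaled to the same sum in every library, as for TPM, and when the highest feature was left out. Under these, in that order, the medians over the 8 libraries became 3088 and 2987 for mt-nd1, 4686 and 4593 for mt-nd2, 3265 and 2901 for mt-nd3, 2131 and 2145 for mt-nd4l, 3152 and 3040.5 for mt-nd4, 2051 and 2025 for mt-nd5, and 1462 and 1496 for mt-nd6. Without the highest feature the median summed level was 19886 in place of 13085, and the median SD of the members 0.74 in place of 0.56. These shifts follow from the rescaling itself, and within-cell ratios do not change with it. Leaving out 1 cell gave 0 to 17 of 21 pairs past the threshold: 17 without M5 and 0 without any other, since 10 pairs at the smallest p possible with 6 cells, 0.03125, are too few for the adjustment. Replacing FPKM by whole reads, with no division by length, gave 18 pairs, 12 of them shared with the 14, and turned 1 of these 12 around. With whole reads 7 of the 21 pairs had the opposite order, so the order holds per length only. The exact Wilcoxon test and log2(FPKM + 1) gave the same 14 pairs. A fit with a replicate block could not be made because there was 1 group. The counting error of reads is small at 1374 or more reads per member, error from capture and amplification was not measured, and the number of cells limits the tests.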
